A study of Mus musculus with 6 samples.

Results

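The 38 Hox genes described here lie in 4 clusters of the mouse genome, HoxA, HoxB, HoxC and HoxD, and were examined for peaks of FLAG-tagged Onecut3. The genes were taken by name, out of 21900 protein-coding genes of the RefSeq table, and each cluster was given the span from its first to its last listed gene (Hoxa13 to Hoxa2, Hoxb13 to Hoxb1, Hoxc13 to Hoxc4 and Hoxd13 to Hoxd1). The span plus 100 kb on either side is called its window. Every peak of the 3 peak lists in a window was used, so the peaks were selected on the same lists that are described, and no test was made on them. The 4 windows held 38, 22 and 26 peaks of replicates 1, 2 and 3, out of 31600, 12856 and 24822 peaks in the whole lists (0.120%, 0.171% and 0.105%). Peaks sharing 1 bp or more were joined into 1 region, which gave 48 regions in the windows out of 50844 in all. A region with a peak in every list is called shared. ChIP-Seq was performed with an anti-FLAG antibody on MEFs, primary fibroblasts from C57BL/6 embryos, that carried FLAG-tagged Onecut3 in a retroviral system switched on by doxycycline. Onecut3 was overexpressed (Onecut3 OE) in MEFs given doxycycline at 100 ng/mL, with 3 FLAG libraries, 1 IgG library and 1 input library, and the control was 1 FLAG library from MEFs of the same kind without doxycycline. Only the 3 Onecut3 OE FLAG libraries had peak lists here, so FLAG signal in cells without Onecut3 was not subtracted. Nothing in the labels says that the 3 replicates came from separate cultures, so the spread between them may be technical. Replicate 2 stood apart, with the fewest peaks and with pileups that could not be recovered from its values, and counts are therefore also given without it. All positions are on GRCm38.

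Hox genes encode homeodomain transcription factors that give cells their place along the head-to-tail axis and, for the highest numbers, along the limbs. Within a cluster the genes are numbered by paralogue group, are transcribed in the same direction, and are used in order, with low numbers active early and towards the head and high numbers later and towards the tail. Onecut3 belongs to the ONECUT factors, which bind DNA through a CUT domain and a homeodomain of their own and are best known in liver, pancreas and nervous system.

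Peaks were unevenly spread over the 4 clusters, and HoxA held 7 of the 10 regions found in every list. The HoxA window held 18 regions, of which 7 were shared, 5 had peaks in 2 lists and 6 in 1 list. The HoxB window held 13 regions, with 2 shared, 7 in 2 lists and 4 in 1 list. The HoxC window held 10 regions and none was shared, since 4 were in 2 lists and 6 in 1 list. The HoxD window held 7 regions, with 1 shared, 2 in 2 lists and 4 in 1 list. Together 10 of 48 regions were shared (20.8%), against 10.1% of all regions of the series. Only 4 of the 10 lay inside a cluster, all of them in HoxA, and the other 6 lay in the flanks. The shared count depended on which lists had to hold a peak: with replicates 2 and 3 alone it was 12, with replicates 1 and 3 alone 19, and with replicates 1 and 2 alone 17. HoxA, HoxB, HoxC and HoxD then held 8, 3, 0 and 1 without replicate 1, 10, 6, 2 and 1 without replicate 2, and 8, 4, 2 and 3 without replicate 3. HoxA had the most in each case, but without replicate 3 its 8 were fewer than the other 3 windows had together. It also depended on the threshold, since no region of the windows had a fold of at least 5 in all 3 lists. Such folds were uncommon elsewhere too. They were reached by 23.4%, 28.6% and 23.9% of the peaks of other shared regions in replicates 1, 2 and 3, against 20%, 20% and 0% for the 10 shared regions here. Over all protein-coding genes, the share with a shared region inside or within 3 kb was 11.5%, and 1.48% at this limit.

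**Figure D1:**
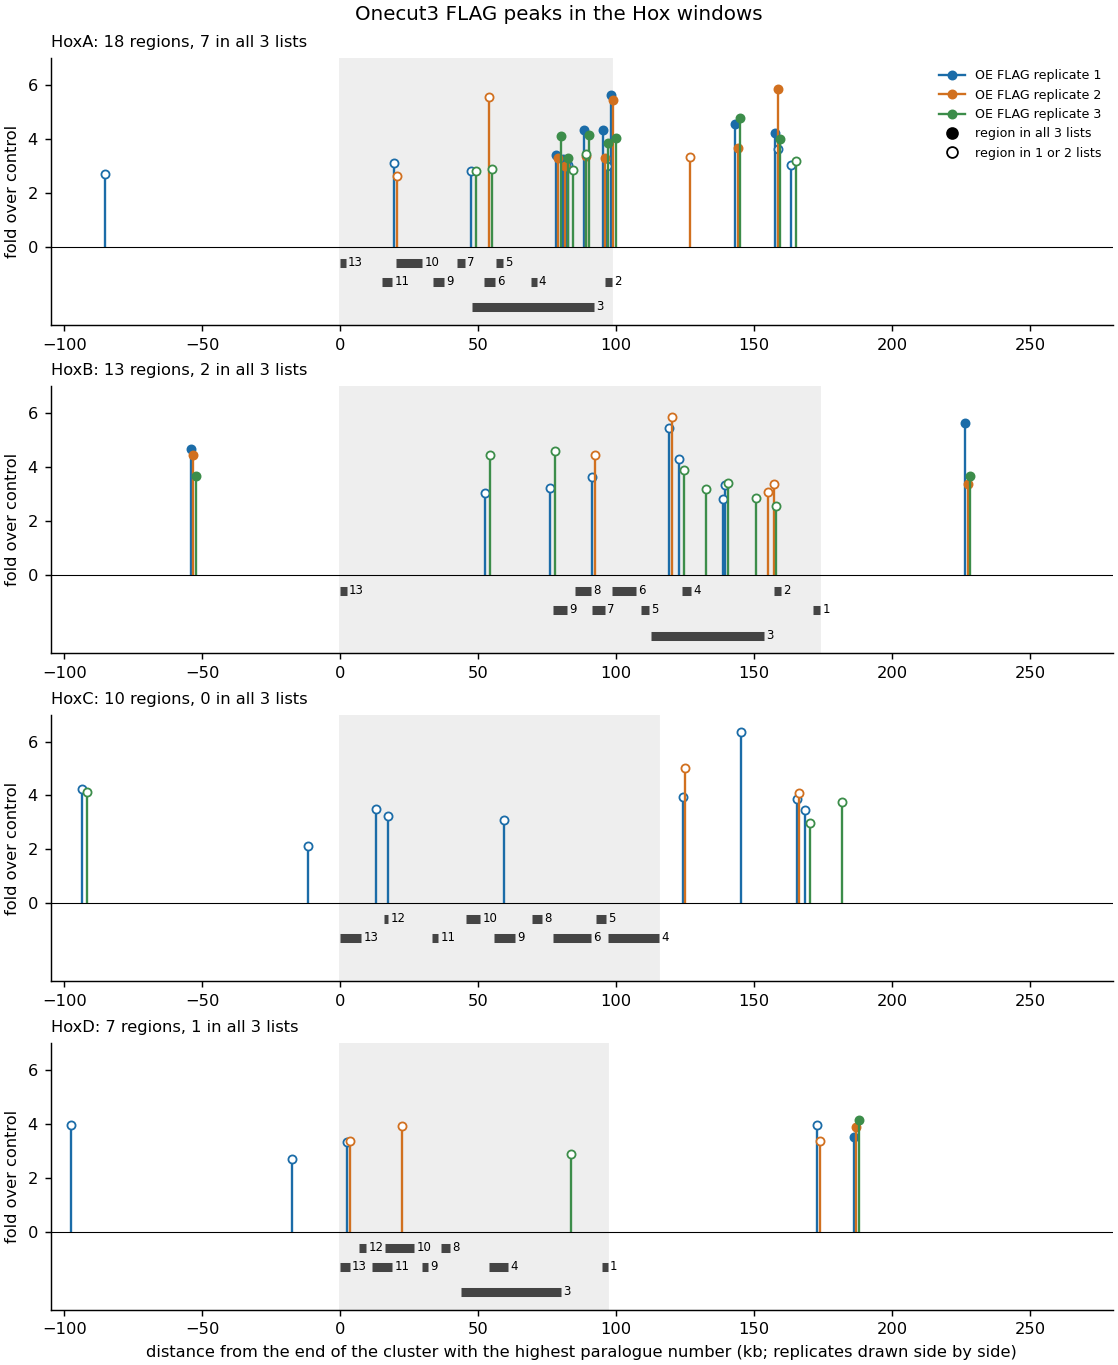
Fold over control of each Onecut3 OE FLAG peak (vertical axis) by distance in kb from the high-number end of its cluster (horizontal axis), with 1 colour per replicate, filled points for regions in all 3 lists and open points for regions in 1 or 2 lists. Grey shading marks the cluster and dark bars the Hox genes with their paralogue numbers: 7 filled groups lie at the low-number side of HoxA, against 2 for HoxB, 0 for HoxC and 1 for HoxD.

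HoxA was also the cluster with the highest density of peaks. Inside HoxA there were 9, 6 and 8 peaks in replicates 1, 2 and 3, or 77.9 ± 15.5 peaks per Mb (SD, n = 3). The 2 flanks of HoxA had 23.3 ± 5.77 peaks per Mb and the rest of chromosome 6 had 11.4 ± 4.76. In each list the density inside HoxA was higher than in its flanks, and in the flanks higher than on the rest of the chromosome. Inside HoxB the density was 34.5 ± 9.96 peaks per Mb, against 10 ± 0 in its flanks and 9.64 ± 3.89 on the rest of chromosome 11. The 3 lists of HoxB, at 40.2, 23.0 and 40.2 peaks per Mb, were above those of the rest of the chromosome. They rest on 7, 4 and 7 peaks. How often other stretches of such a length reach the densities of HoxA or HoxB was not counted, so these values are a description only. In HoxC and HoxD the lists overlapped those of the rest of the chromosome. Inside HoxC the density was 8.64 ± 15 peaks per Mb, with 3 peaks in replicate 1 and 0 in replicates 2 and 3, against 18.3 ± 10.4 in its flanks and 12.8 ± 4.95 on the rest of chromosome 15. Inside HoxD the density was 13.8 ± 5.96 peaks per Mb, against 11.7 ± 7.64 in its flanks and 12.1 ± 5.12 on the rest of chromosome 2. For all 4 windows the density was 22.3 ± 6.48 peaks per Mb, against 8.52 ± 3.51 over the rest of the assembled chromosomes. With peaks of fold of at least 5 alone, the windows had 2.33 peaks per Mb.

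**Figure D2:**
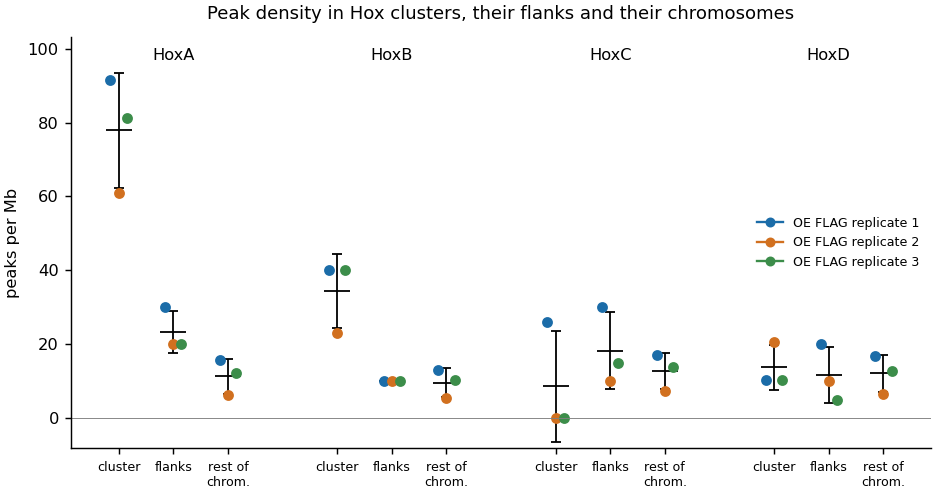
Peaks per Mb (vertical axis) inside each Hox cluster, in its flanks of 100 kb on either side and on the rest of its chromosome, with 1 point per Onecut3 OE FLAG replicate, a horizontal bar for the mean and error bars for the SD (n = 3). HoxA, at 77.9 peaks per Mb, and HoxB, at 34.5, lie above their chromosomes in every replicate, and the points of HoxC and HoxD overlap theirs.

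As a measure of how often a stretch of the genome holds such a number, the assembled chromosomes were cut into 9001 tiles of 300 kb, about the length of the HoxA window (298 kb). At least 1 shared region lay in 35.7% of tiles, and in 3 of the 4 Hox windows. A count as high as the 7 of the HoxA window was found in 7 tiles (0.0778%), and the highest count of any tile was 9. The HoxA window itself was placed on its genes and the tiles were not, and the limit of 7 was taken from HoxA after its value was seen, so these shares describe the genome and do not test HoxA.

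Hoxa2 and Hoxa3 were the Hox genes with a shared region inside the gene or within 3 kb. Hoxa2 patterns the hindbrain and the second pharyngeal arch, and Hoxa3 is needed for thymus, parathyroid and other derivatives of the pharynx. At Hoxa2 (chr6:52162417-52164831, minus strand) 1 shared region covered the start of the gene. It ran from 52164466 to 52165202 and had folds of 4.33, 3.29 and 3.85 over control in replicates 1, 2 and 3, with q values of 0.000162, 0.0164 and 0.00668. A fold here is the ratio of ChIP pileup to expected background at the summit, and q is the adjusted p-value that the list gives for the peak. These folds stood at percentiles 90.1, 24.7 and 78.6 of their lists, so the region ranked high in replicates 1 and 3 and low in replicate 2. The pileup at the summit was 16 fragments in replicate 1 and 12 in replicate 3.

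The region at the start of Hoxa2 contained all 300 bases of the RefSeq promoter of GRCm38.p6, which run from 250 bases before the start to 50 after it. This promoter is printed because it was the only one of a Hox gene covered by a peak in all 3 lists. The peaks of replicates 1, 2 and 3 covered 300, 299 and 190 of its bases, with summits at -104, -57 and -129 from the start. The promoter of Hoxb4 is printed beside it because it was covered by a region in 2 lists, described with HoxB. Capitals mark the letters ATTGAT on either strand, read as ATCAAT in Hoxa2, and the palindrome ATCGAT in Hoxb4, both searched for as short forms of the sequence that ONECUT factors bind.
Hoxa2, chr6:52164782-52165081, minus strand: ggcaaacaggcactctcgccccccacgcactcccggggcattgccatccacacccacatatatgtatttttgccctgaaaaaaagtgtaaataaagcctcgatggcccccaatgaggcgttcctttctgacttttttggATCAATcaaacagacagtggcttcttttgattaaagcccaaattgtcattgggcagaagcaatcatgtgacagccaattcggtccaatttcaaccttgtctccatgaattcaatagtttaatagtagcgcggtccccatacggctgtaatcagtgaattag
Hoxb4, chr11:96318017-96318316, plus strand: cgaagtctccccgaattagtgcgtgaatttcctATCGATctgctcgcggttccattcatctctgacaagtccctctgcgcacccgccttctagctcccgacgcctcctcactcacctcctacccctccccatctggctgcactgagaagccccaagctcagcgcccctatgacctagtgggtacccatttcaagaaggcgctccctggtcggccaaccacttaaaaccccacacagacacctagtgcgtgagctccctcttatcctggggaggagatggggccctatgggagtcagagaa
In Hoxa2 the capitals start at -111, which is 7, 54 and 18 bp from the summits of replicates 1, 2 and 3. In Hoxb4 they start at -217, which is 24 bp from the summit of replicate 1 and 65 bp from that of replicate 3. The table held 24 promoters for 22 of the 38 Hox genes (9 of HoxA, 3 of HoxB, 1 of HoxC and 9 of HoxD). ATTGAT was present in 6 of the 24 (25%), against 7.54% of all 32851 promoters, and these were promoters of Hoxa2, Hoxa10, Hoxb8, Hoxd4, Hoxd8 and Hoxd11. ATCGAT was present in 2 of the 24 (8.33%, Hoxb4 and Hoxd11), against 0.925% of all. Of the 7 Hox genes with either motif, only the promoters of Hoxa2 and Hoxb4 were covered by a region in at least 2 lists. These were also the only ones of the 24 promoters so covered. The share of all promoters so covered was not counted, so nothing is read from where letters and peaks met. A match of letters is not a measured site.

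The strongest of the shared regions next to a Hox gene lay 231 bp beyond the 3′ end of Hoxa2. It ran from 52161482 to 52162186 and had folds of 5.64, 5.45 and 4.05 in replicates 1, 2 and 3, at percentiles 97.5, 91.6 and 80.7, with q values of 8.23e-08, 8.86e-07 and 0.00311. It was the only shared region inside or next to a cluster that stood above percentile 80 in each list. It overlapped the annotated span of Hotairm1, a long noncoding RNA that in human cells is known for its part in HOXA expression during myeloid differentiation. Further out on the same side of HoxA there were 2 more shared regions. That at 52116420-52117086, 45.3 kb beyond Hoxa2, had folds of 4.54, 3.67 and 4.78. That at 52102185-52102486, 59.9 kb beyond Hoxa2, had folds of 4.24, 5.85 and 3.99, and was the only shared region of the windows whose highest percentile (94.3) came from replicate 2. Neither of these 2 overlapped an annotated gene.

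Hoxa3 had 3 shared regions inside its annotated span, all in the part that lies next to Hoxa2. The annotated span of Hoxa3 is 44009 bp long and holds the smaller genes Hoxa4, Hoxa5 and Hoxa6, so a peak inside it need not belong to Hoxa3. The region at 52171499-52171821 had folds of 4.31, 3.38 and 4.14 in replicates 1, 2 and 3, with pileups of 19 and 17 fragments in replicates 1 and 3. The region at 52179127-52179498 had folds of 3.26, 2.99 and 3.31 and was the weakest of the 10 shared regions, with a q of 0.128 in replicate 2. The region at 52181472-52182067 had folds of 3.41, 3.29 and 4.12. The last 2 of these also overlapped the long noncoding RNA LOC115490409. In replicate 2 all 3 regions stood below the median of their list, at percentiles 33.1, 13.6 and 24.7. In replicates 1 and 3 all 3 stood above it, at 90.0, 57.1 and 68.4 in replicate 1 and at 85.3, 54.1 and 81 in replicate 3. Hoxa4 had no region within 3 kb, and its nearest shared region was 7.62 kb away.

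The rest of HoxA had regions in 2 lists at most. At Hoxa5 and Hoxa6, which act in the neck and upper trunk, the region at 52206716-52206997 had folds of 5.55 in replicate 2 and 2.89 in replicate 3, and these 2 values stood at percentiles 91.8 and 34.1. The annotated start of Hoxa3 had a region at 52212515-52212898 in replicates 1 and 3, with folds of 2.80 and 2.83, its summits on average 348 bp downstream of the start. It was also within 3 kb of Hoxa7 (2.73 kb). At Hoxa10, a gene of lumbar vertebrae and uterus, the region at 52240252-52240661 had folds of 3.10 and 2.62 in replicates 1 and 2, with the summit 350 bp downstream of the start. Its pileup in replicate 1, 19 fragments, was as high as at Hoxa3, over the highest background of the windows (5.45 fragments). The same region lay within 3 kb of Hoxa11 (1.44 kb), a gene of forearm and kidney. Hoxa9 and Hoxa13 had no region within 3 kb.

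In HoxB peaks were frequent inside the cluster, but none of its 11 regions was shared. The 7 regions in 2 lists ran from the gap between Hoxb13 and Hoxb9 to Hoxb2. The one with the highest folds lay inside the annotated span of Hoxb3, a gene of the hindbrain and pharynx, at 96314345-96314630, with folds of 5.45 in replicate 1 and 5.85 in replicate 2 (percentiles 97.1 and 94.3) and no peak in replicate 3. At Hoxb4, known for its effect on the self-renewal of blood stem cells, the region at 96317901-96318313 covered 297 of the 300 promoter bases printed above. It had folds of 4.31 in replicate 1 and 3.91 in replicate 3, and no peak in replicate 2. Its 2 peaks covered 189 and 297 of these bases, with summits at -193 and -152 from the start.

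The other regions of HoxB in 2 lists were weaker in at least 1 of them. At Hoxb9, a gene of the ribs and thoracic spinal cord, the region at 96271151-96271412 had folds of 3.24 in replicate 1 and 4.60 in replicate 3. At Hoxb7 and within 3 kb of Hoxb8 (1.06 kb), both genes of the trunk, the region at 96286381-96286618 had folds of 3.63 in replicate 1 and 4.46 in replicate 2. Inside Hoxb3 the region at 96333772-96334036 had folds of 2.81 in replicate 1 and 3.42 in replicate 3. The lowest were next to Hoxb2, a gene of the hindbrain, where the region at 96351406-96351617, 15 bp from the gene, had folds of 3.38 in replicate 2 and 2.56 in replicate 3, and a q of 0.746 in replicate 3. Between Hoxb13 and Hoxb9 the region at 96247617-96247891 had folds of 3.03 in replicate 1 and 4.46 in replicate 3. Hoxb1, Hoxb5, Hoxb6 and Hoxb13 had no region within 3 kb.

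The 2 shared regions of the HoxB window stood outside the cluster, one on either side. The region at 96140870-96141210 was 53.1 kb beyond Hoxb13, in Ttll6, which encodes a tubulin polyglutamylase, and had folds of 4.69, 4.44 and 3.67 in replicates 1, 2 and 3. Its pileups of 25 and 18 fragments in replicates 1 and 3 were the highest of the 10 shared regions. The region at 96421590-96422033 was 53.3 kb beyond Hoxb1, overlapping no annotated gene, and had folds of 5.64, 3.38 and 3.68, at percentiles 97.5, 33.1 and 69.4. Neither was counted for a Hox gene.

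The Hox clusters also hold microRNAs, small RNAs of which miR-10 and miR-196 are known to act on Hox transcripts. None of the 6 microRNA genes in the windows lay in a region. The share over all microRNA genes of the genome was not counted, so nothing is read from this. Of the 6, Mir10a was the closest to a region, 0.627 kb from that at the Hoxb4 promoter. Mir10b of HoxD was 24.6 kb from the nearest region, which was in 1 list only. The mature sequences are printed, with the seed (bases 2 to 8) in capitals, because these 2 share their seed and differ in their distance to peaks.
miR-10a-5p: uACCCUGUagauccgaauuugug
miR-10b-5p: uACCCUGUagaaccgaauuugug
miR-196a-5p: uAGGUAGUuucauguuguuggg
miR-196b-5p: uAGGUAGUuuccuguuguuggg
The 3 genes of the miR-196 family, which share the other seed, were 5.89 kb (Mir196a-1, HoxB), 7.94 kb (Mir196a-2, HoxC) and 10.1 kb (Mir196b, HoxA) from the nearest region. Mir615 of HoxC was 31.0 kb from one.

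HoxC had no region in more than 1 list inside the cluster. Its 3 regions inside were all from replicate 1, which had the most peaks overall. Next to Hoxc12 they had folds of 3.49 and 3.22, and inside Hoxc9, a gene of the thoracic skeleton and spinal cord, a fold of 3.09. The other 7 members of HoxC had no region within 3 kb. The 7 regions of the flanks included the highest fold of all 4 windows, 6.36 at 103067266-103067623, 30.4 kb beyond Hoxc4. That peak was present in replicate 1 only, and replicates 2 and 3 had none there. The nearest shared region was 168 to 232 kb from the members of HoxC, farther than for any member of HoxA (0 to 76.8 kb) or HoxB (53.1 to 136 kb). The distances of HoxD (89.9 to 183 kb) overlapped those of HoxC. The median was 209 kb for HoxC and 152 kb for all protein-coding genes.

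HoxD had 1 region in 2 lists, at Hoxd13, a gene of the digits. It lay at the 3′ end of the gene, at 74671512-74671764, and had folds of 3.33 in replicate 1 and 3.35 in replicate 2. Single peaks were found in Hoxd10, a gene of the lumbar spinal cord, with a fold of 3.90 in replicate 2, and 2.46 kb from Hoxd3, a gene of the upper neck, with a fold of 2.87 in replicate 3. The other 6 members of HoxD had no region within 3 kb. The only shared region of the HoxD window was at 74855073-74855416, 89.9 kb beyond Hoxd1 and in Mtx2, which encodes a protein of the outer mitochondrial membrane. It had folds of 3.49, 3.87 and 4.14 in replicates 1, 2 and 3. This region lay 9.90 kb inside the limit of the window, and with flanks of 50 kb it was not counted. On 2 sides the nearest region outside the window was also shared. That beyond Hoxb13 (96053198-96053559) lay 40.9 kb past the limit, with a highest fold of 6.55, and that beyond Hoxa2 (52007492-52007993) lay 54.7 kb past it, with a highest fold of 3.32.

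Counted by gene, 2 of the 38 Hox genes (5.26%) had a shared region inside or within 3 kb, against 11.5% of all protein-coding genes. A region in at least 2 lists was found for 14 of 38 (36.8%), against 21.8%, and a region in any list for 18 of 38 (47.4%), against 45.5%. The Hox genes were therefore below the background with 3 lists, above it with at least 2 lists and near it with any list. Hox genes are short, with a median length of 3722 bp against 17146 bp for all genes, and overlapping spans let 1 region count for several genes. The length of the genes moves with these shares, and its part was not tested. Nothing is read from these shares about the Hox genes, since the same lists chose the peaks. Without replicate 1, 5 of 38 Hox genes had a region in every remaining list, against 13.8% of all protein-coding genes. Without replicate 2 it was 6 of 38, against 17.2%, and without replicate 3 it was 8 of 38, against 14.7%. The place of the Hox genes relative to the background thus depended on the lists used. Around the gene starts of the promoter table, 1 of 22 Hox genes (4.55%, Hoxa2) had a shared region within 3 kb, against 4.35% of 17492 genes, and 6 of 22 (27.3%) had a region in at least 2 lists, against 8.5%. These 6 were Hoxa2, Hoxa3, Hoxa5, Hoxa6, Hoxa10 and Hoxb4. The 22 genes were 9 of HoxA, 3 of HoxB, 1 of HoxC and 9 of HoxD. HoxC was thus nearly left out, and the share does not stand for all 38 genes.

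By cluster, 7 of 10 genes of HoxA, 6 of 10 of HoxB, 0 of 9 of HoxC and 1 of 9 of HoxD had a region in at least 2 lists. Over all protein-coding genes the share was 21.8%. By paralogue group, the Hox genes with such a region were 4 of 7 genes of groups 1 to 3 (57.1%), 6 of 15 of groups 4 to 8 (40%) and 4 of 16 of groups 9 to 13 (25%). Both genes with a shared region were in the first of these classes. That class has no gene of HoxC, and it includes the long spans of Hoxa3 (44009 bp) and Hoxb3 (40830 bp). The classes thus differ in their clusters, and the part of cluster and gene length was not tested. The peaks themselves were also on the low-number side: of the 28 regions inside the clusters, 20 lay on the low-number side of the midpoint and 8 on the other. This came from HoxA and HoxB, where 9 regions lay on the low-number side and 2 on the other in each. In HoxC and HoxD it was 1 against 2 in each. The midpoint of HoxB lies inside Hoxb8. Of its Hox genes, only Hoxb13, Hoxb9 and part of Hoxb8 lie on the high-number side, with the wide gap after Hoxb13. Most genes of HoxB therefore lie on its low-number side, and the part of gene position in this split was not tested. The 4 shared regions inside a cluster were all on the low-number side of HoxA. Outside the clusters, the low-number flanks held 14 regions (5 of them shared) and the high-number flanks held 6 (1 shared). This difference came from HoxA (6 against 1) and HoxC (5 against 2), while HoxB (1 against 1) and HoxD (2 against 2) had none. No test was made of either pattern.

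**Figure D3:**
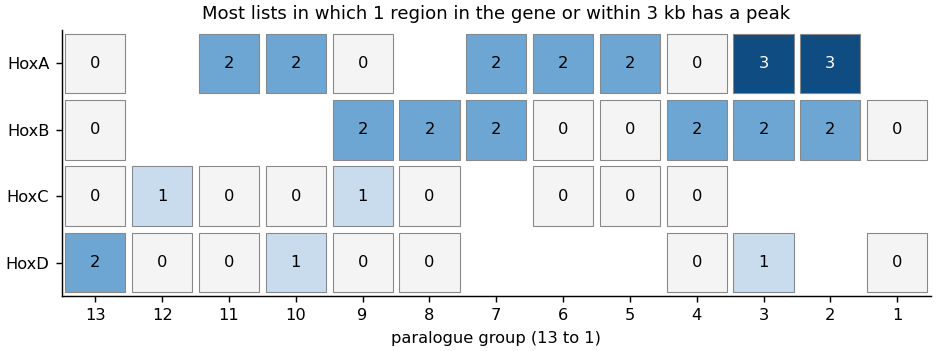
The 38 Hox genes by cluster (rows) and paralogue group (columns, 13 to 1), with the number in each cell giving the most Onecut3 OE FLAG lists that have a peak in 1 region inside the gene or within 3 kb, and blank cells where no gene is listed. Hoxa2 and Hoxa3 reach 3, and 12 genes reach 2, of which 11 are in HoxA and HoxB.

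The peaks of the windows were of middling height. Their median fold was 3.47, 3.53 and 3.67 in replicates 1, 2 and 3, against 3.03, 3.79 and 3.18 for all other peaks of the same list. So the Hox peaks had a higher median than the others in replicates 1 and 3 and a lower one in replicate 2. A q of at most 0.05 was reached by 63.2%, 72.7% and 65.4% of the Hox peaks, against 33.5%, 71.0% and 47.6% of the other peaks. For the 10 shared regions the median percentile was 90.0, 40.9 and 80.3, against 83.2, 67.8 and 80.5 for the peaks of all other shared regions. Replicate 2 was thus the list in which the shared Hox regions ranked lowest, and in 6 of the 10 regions its percentile was below 50. The evidence behind each region was small in number, with 12 to 25 fragments at the summit over a background of 2.30 to 4.54 in replicate 1, and 12 to 18 fragments over 2.14 to 4.18 in replicate 3.

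**Figure D4:**
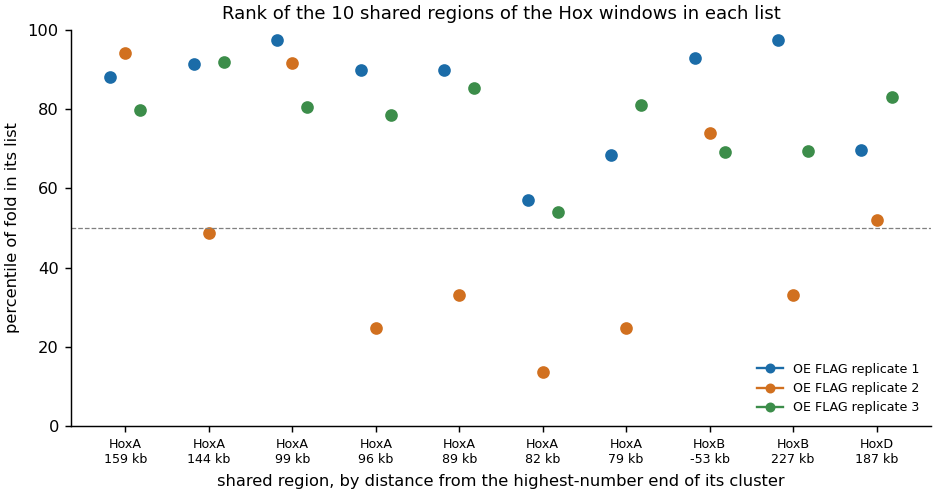
Percentile of the fold among all peaks of the same list (vertical axis) for the 10 shared regions of the Hox windows (horizontal axis, named by cluster and by distance in kb from its high-number end), with 1 point per Onecut3 OE FLAG replicate and a dashed line at the median of a list. All points of replicates 1 and 3 lie above the line, and those of replicate 2 range from 13.6 to 94.3.

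The same count was made for short lists of genes that work with Hox proteins, control Hox clusters or are related to them. TALE homeodomain proteins (Meis, Pbx and Pknox) bind DNA together with Hox proteins, and 5 of 9 of their genes had a shared region inside or within 3 kb, against 11.5% of all genes. These genes are long, with a median of 139224 bp. The stronger of the 2 shared regions at Meis1, at chr11:19020252-19021052, had folds of 12.7, 12.2 and 13.4 in replicates 1, 2 and 3, more than any peak of the Hox windows. Pbx3 had folds of 5.15, 8.35 and 5.09 at its strongest region, and Pknox1 had 5.36, 4.30 and 4.73. Meis2 had 4 shared regions. Retinoic acid is a known inducer of the low-number Hox genes, and 2 of 6 genes of its receptors and enzymes had a shared region, namely the receptors Rara (6.95, 5.39 and 5.07) and Rarb (4.84, 5.29 and 5.09 at the strongest of its 4). Polycomb and Trithorax regulators keep Hox genes silent or active, and 1 of 16 had one, Kmt2a, a histone methyltransferase that maintains Hox expression (4.84, 5.29 and 7.01). ParaHox and Evx genes, the closest relatives of Hox genes, had a shared region in 0 of 7, at a median length of 5752 bp. The median length was 34864 bp for the retinoic acid genes, among which Rarb is 651 kb long, and 24410 bp for the Polycomb and Trithorax regulators. These lists were described by their counts only, and the length of their genes moves with the counts. The lists are small, and differences between them were not tested.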

How the data were processed

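ChIP-Seq lists of 3 Onecut3 OE FLAG libraries were used, out of 6 libraries; RNA-Seq and the control FLAG, IgG and input libraries were not analysed here. Peaks were called with MACS according to the study, and the submitters' processing notes list, without saying what each did, deepTools 3.3.2, MACS2 2.1.0 and Bowtie2 2.2.6, with the build GRCm38. Peak names point to calling per sample with an input control. Filters on reads are not stated in the sources used, and the depth is unknown. For each peak, the deposited lists hold the position, the summit, a score, the p-value and the q-value as -log10, and a fold, the ratio of pileup to background at the summit after adding 1 to each. The score was not used as a measurement.

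Folds depend on depth and background and were compared within a list only. The fold and p-value of the authors were solved for pileup and background, within 0.001 in -log10 p, on every peak of the windows and on a sample of each list, of which 100% were solved in replicates 1 and 3 and 0.0778% in replicate 2, so pileups are given for replicates 1 and 3. Regions joined peaks with an overlap of 1 bp or more. Genes came from the RefSeq table of GRCm38.p6, and chromosome lengths from the first and last gene or peak. Groups came from the sample labels. No test was run, because the same peaks chose the windows' content. A replicate block was not fitted, since only 1 group had files.

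All Hox genes were accounted for. Named with values were genes with a region in at least 2 lists, genes nearest to a shared region and, for each other list, up to 4 genes with the highest mean fold; Meis2 and single regions of HoxC and HoxD were named beside them after their values were seen. The values of 1 gene and 1 detail of the cells are not reported here. Members and lists were chosen with earlier results of these data known. Shares in at least 2 or in any list, the gene starts, the 300 kb tiles and all medians of folds were added after the lists had been looked at. Alternatives were peaks with -log10 q of at least 5, fold of at least 5 or q of at most 0.05, overlap of at least 50% of both peaks, summits within 100 bp, flanks of 0, 50 and 200 kb, windows of 1 and 10 kb and leaving out each replicate. Merging, counting and solving were tested on simulated data. The scripts used scipy 1.17.1, pandas 2.3.3, numpy 2.4.6 and, for figures, matplotlib 3.10.9 under Python 3.11.15.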

Additional observations from a re-analysis of the deposited data

How the results depend on the processing

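The 10 shared regions of the Hox windows became 9 with peaks of q of at most 0.05, 8 with an overlap of at least 50% of both peaks and 8 with summits within 100 bp. They became 0 with peaks of -log10 q of at least 5 and 0 with peaks of fold of at least 5. With flanks of 0, 50 and 200 kb in place of 100 kb they were 4, 6 and 16, which follows from the length covered, and with 1 replicate left out they were 12 to 19, where a region needs a peak in 2 lists only. The 22.3 peaks per Mb became 2.59 with -log10 q of at least 5, 2.33 with fold of at least 5, 14.8 with q of at most 0.05 and 33.0 with flanks of 0 kb, and were 18.7 to 24.9 with 1 replicate left out. The density over the rest of the genome under these limits is not given here, so they do not show whether the difference from it changed. The 2 Hox genes with a shared region became 0 with -log10 q of at least 5 (1.53% of all genes) and 0 with fold of at least 5 (1.48%), and 5 to 8 with 1 replicate left out. They stayed 2 with q of at most 0.05, with both other overlaps and within 1 kb, and were 3 within 10 kb. With 1 replicate left out, HoxA held 8 to 10 shared regions, HoxB 3 to 6, HoxC 0 to 2 and HoxD 1 to 3, against 7, 2, 0 and 1 with all lists. With flanks of 200 kb they held 8, 4, 3 and 1, so HoxA had as many as the others together, and with flanks of 0 kb 4, 0, 0 and 0. No cluster held any under the thresholds on -log10 q and on fold at 5. No paired analysis was possible because only 1 group has files. Depth is unknown, and summits of 12 to 25 fragments leave little room between a peak that passed in a list and one that did not.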

Other observations

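Long noncoding RNAs are common in and around the Hox clusters, and their annotated spans overlapped some of the same regions. Of 14 in the HoxA window, 3 were overlapped by a shared region (Hotairm1, LOC115490409 and 5730596B20Rik) and 1 by a region in 2 lists (Hoxaas3). Of 8 in the HoxB window, 1 was overlapped by a shared region (Gm30084, at the region in Ttll6) and 1 by a region in 2 lists (Hoxb3os). Of 6 in the HoxC window, none was overlapped by a shared region and 1 by a region in 2 lists (Gm30528). Of 7 in the HoxD window, none was overlapped by a region in more than 1 list. Where such an RNA overlaps a Hox gene, the same region is counted for both. The share over all long noncoding RNAs of the genome is not given here, so nothing is read from these counts.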
